A study of Mus musculus with 47 samples.

Results

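Luminal mature cells of the mouse mammary gland were compared between mice given estradiol and progesterone together with mifepristone (EP_RU486, 4 mice) and mice given a sham treatment without hormones (sham, 4 mice). Both groups were taken whole, as the labels assign them, so 8 of the 47 libraries of the series, and 8 of its 15 luminal mature libraries, enter the comparison. All mice were ovariectomized and of the FVB strain, and treatment lasted 14 days. The sham mice were numbers 301, 305, 310 and 326, the EP_RU486 mice were numbers 308, 313, 329 and 333, and each gave 1 library of sorted cells. The other luminal mature groups were estradiol with progesterone alone (EP, 3 mice) and the same hormones with telapristone acetate (EP_TPA, 4 mice), and their values are set beside the results. The labels used here give no doses and no ages, and no group received estradiol alone or mifepristone alone. The comparison asks what distinguishes cells exposed to hormones and antagonist from the hormone-free state. The parts played by estradiol, by progesterone and by mifepristone itself cannot be told apart.

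Mature luminal cells line the ducts and carry most of the gland's estrogen and progesterone receptors. They pass the hormone signal to receptor-negative neighbours through secreted factors such as amphiregulin, Wnt4 and RANKL. Mifepristone competes with progesterone for its receptor and also blocks the glucocorticoid receptor.

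Levels are given as FPKM, fragments per kilobase of transcript scaled to the mapped fragments of the library, rescaled between libraries. From their pattern, the deposited values had been shifted gene by gene within the set of luminal mature libraries and negative results set to 0, so a level listed at 0 may stand for a low level. No fold is given where every library of a group is listed at 0. Folds are differences of mean log2(FPKM + 1), EP_RU486 minus sham, with their standard error (SE), and means carry the SD over the 4 mice. A gene was called higher or lower at an adjusted p under 0.05 in limma's moderated test. The test pools the spread over all 4 luminal mature groups. A group listed at 0 throughout adds no spread, so the p of such a gene may be too small. Over the 8 libraries the summed values ran from 281351 to 325881, and 10439 to 10845 genes had a value above 1. Read numbers behind the values are not known.

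Of 11882 genes tested, 2587 (21.8%) were called. EP_RU486 was higher for 1221 genes (10.3%) and lower for 1366 (11.5%). These shares stand beside every count of called members of a gene list below. A count near them is no result about that list. Of the genes called higher, 520 had a log2 fold over 1 and 101 a fold over 2, and of those called lower, 627 and 184 passed the same sizes. The 4 EP_RU486 values lay above the 4 sham values without overlap for 1851 genes (15.6%) and below them for 1799 (15.1%). The median log2 fold over all genes was 0.04. The count of genes called higher was 804 without sham mouse 310, 803 without sham mouse 326 and 808 without EP_RU486 mouse 313. In bulk libraries such as these, fewer cells of a type and less RNA per cell cannot be told apart.

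In the libraries labelled luminal mature with EP_RU486, most markers of that cell type were lower than in sham. Of 20 luminal mature markers, 14 were called lower and none higher, and 13 to 14 were lower when any 1 of the 8 libraries was left out (written below as without that mouse). The median fold of the list was -2.17, and -2.14 over the 8 markers above 0 in some library of both groups. In all 4 EP_RU486 libraries 12 markers were listed at 0, of which 2 were also at 0 in all 4 sham libraries. The summed level of the list was 1002 to 2253 in sham and 119 to 193 in EP_RU486. It was 843 to 2417 in EP and 170.3 to 362 in EP_TPA. The part of this lower marker level in the other differences was not tested.

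Estrogen receptor alpha (Esr1), the receptor that starts the hormone response in these cells, stood at 16.5, 19.4, 29.2 and 29.9 in sham and at 1.41, 2.11, 0.495 and 1.501 in EP_RU486 (fold -3.38, SE 0.39, adjusted p = 4.29e-05). The groups did not overlap. Esr1 in EP was 2.44, 11.2 and 1.603, also below every sham library. The progesterone receptor Pgr was 1.47, 4.59, 5.44 and 3.99 in sham, and in EP_RU486 it was listed at 0 in 3 libraries and at 0.189 in mouse 308 (adjusted p = 0.0019).

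Foxa1, a pioneer factor that lets the estrogen receptor reach its sites, was 11.9, 66.9, 29.3 and 35.4 in sham and listed at 0 in all 4 EP_RU486 libraries (adjusted p = 3.84e-05). The prolactin receptor Prlr was 198, 510.0, 389.8 and 399 in sham and listed at 0 in all 4 EP_RU486 libraries (adjusted p = 4.75e-05). In EP, Foxa1 was 15.7, 42.6 and 12.3 and Prlr was 119, 229 and 88.8. Both genes were thus well above 0 in every library that had hormones without an antagonist. In EP_TPA, mouse 332 had Foxa1 at 3.29 and Prlr at 27.3, and the other 3 mice were listed at 0.

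The ligand Wnt4, which acts on neighbouring progenitors, was 7.47, 21.2, 12.2 and 16.4 in sham. The stanniocalcin Stc2, a secreted glycoprotein, was 53.2, 187, 117 and 130.2 in sham. The transcription factor Myb was 1.16, 2.67, 2.69 and 3.67 in sham. All 3 were listed at 0 in every EP_RU486 library and stood above 0 in every EP library. The transcriptional coactivator Cited1 was 133, 404, 112 and 205 in sham and the heparin-binding growth factor Ptn was 247, 589.7, 479 and 582, and both were listed at 0 in every EP_RU486 library. Amphiregulin (Areg), a ligand of the EGF receptor, was 8.27, 9.76, 48.4 and 57.5 in sham and listed at 0 in all 4 EP_RU486 libraries. Its adjusted p was 0.0266 and ran from 0.0301 to 0.0758 when 1 library was left out. The call was lost in turn without sham mice 310 and 326 and EP_RU486 mice 308, 313, 329 and 333.

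Other markers were lower without reaching 0. Prom1 (CD133), a surface protein, was 36.4 ± 12.9 in sham and 6.89 ± 1.13 in EP_RU486 (fold -2.18, SE 0.29, adjusted p = 0.000111). Ly6a (Sca-1), also on the surface, was 271 ± 85.1 against 60.9 ± 22.4 (fold -2.15, SE 0.38, adjusted p = 0.00132). The transcription factor Tbx3 was 22.0 ± 9.29 against 1.21 ± 0.418, and Spdef, an ETS factor, 2.10 ± 0.915 against 0.407 ± 0.225. For none of these 4 markers did the groups overlap.

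The remaining 6 markers were not called. RANKL (Tnfsf11) and the calcitonin gene Calca were listed at 0 in all 8 libraries, although RANKL was 24.0, 4.99 and 40.5 in EP. The estrogen target Greb1 reached at most 0.102 in the 8 libraries and was 3.44, 8.15 and 1.49 in EP. The chemokine Cxcl15 was 0, 11.7, 7.88 and 2.60 in sham and the serotonin enzyme Tph1 was 0, 2.54, 6.93 and 0, both listed at 0 in every EP_RU486 library. Rcan1, a regulator of calcineurin, was 149 ± 45.4 in sham and 74.8 ± 16.0 in EP_RU486 (adjusted p = 0.143).

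**Figure D1:**
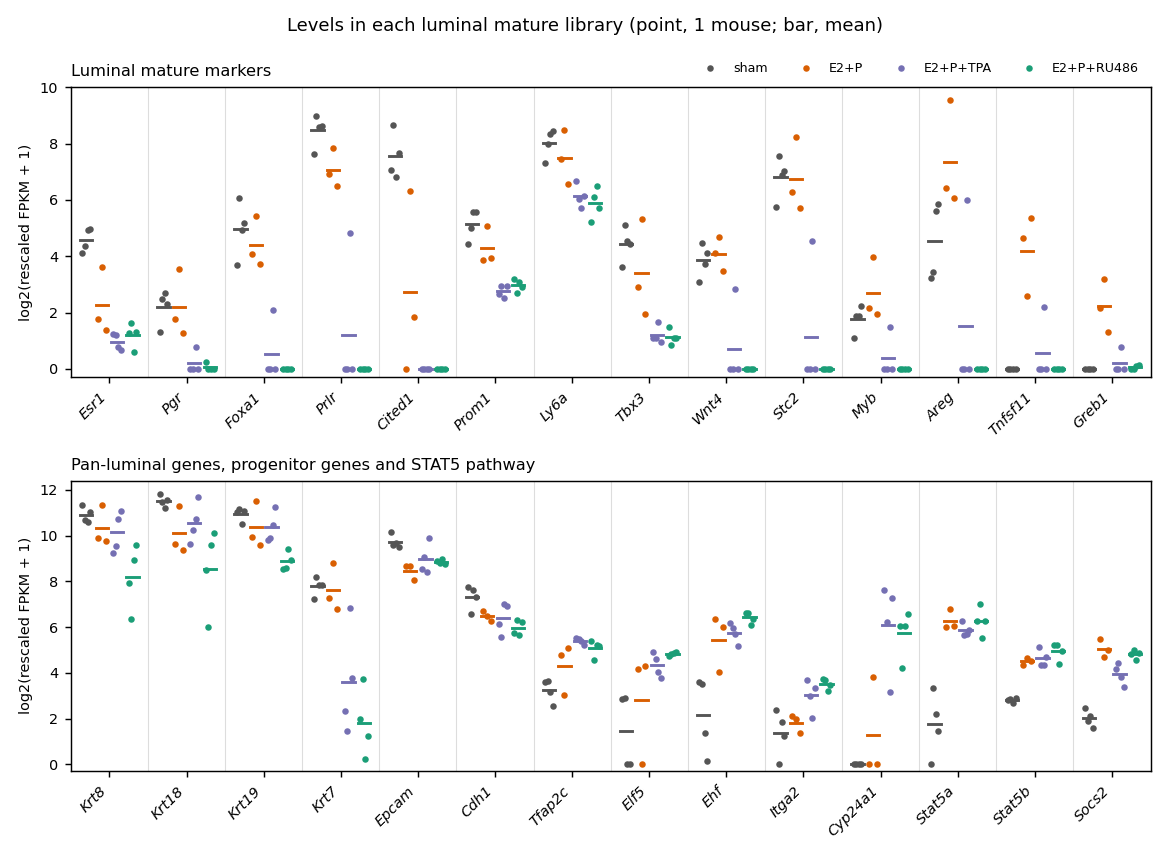
Level of selected marker and pathway genes in each of the 15 luminal mature libraries, as log2(rescaled FPKM + 1), by treatment group, where E2+P+RU486 is EP_RU486. Each point is 1 mouse and each bar the group mean. Luminal mature markers such as Foxa1, Prlr and Wnt4 are at 0 in all 4 E2+P+RU486 libraries and above 0 in every sham library.

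Keratins shared by all luminal cells were lower as well. Of 16 pan-luminal genes, 8 were called lower and 1 higher, with a median fold of -1.04. Of the list, 5 were lower without sham mice 301 or 310 or EP_RU486 mice 308 or 313. Krt8 was 2614, 1642, 1555 and 2119 in sham and 241, 81.6, 493 and 758 in EP_RU486 (fold -2.72, SE 0.62, adjusted p = 0.00803). Its partner Krt18 was 3610, 2798, 2349 and 2977 in sham and 358, 63.4, 776 and 1100 in EP_RU486 (fold -2.95, SE 0.76, adjusted p = 0.0162). Neither keratin overlapped between the groups, and both were singled out after their values were seen.

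Krt19 was 1996 ± 380.5 in sham and 483 ± 140.4 in EP_RU486, Krt7 was 225 ± 57.1 against 4.15 ± 5.43, and the adhesion molecule E-cadherin (Cdh1) was 166 ± 52.4 against 63.2 ± 14.3. The transcription factor Tfap2c went the other way, at 8.98 ± 3.15 in sham and 33.8 ± 7.60 in EP_RU486 (fold 1.83, SE 0.37, adjusted p = 0.00273). The summed pan-luminal level was 7574 to 11269 in sham and 1497 to 3552 in EP_RU486, without overlap. Of 19 tight junction and polarity genes, 5 were lower and 1 higher. In that list, 0 were higher without sham mice 305 or 326 or EP_RU486 mice 308 or 333, 2 were lower without sham mouse 301 or EP_RU486 mouse 313, and 3 were lower without sham mouse 326 or EP_RU486 mouse 333. F11r, a junctional adhesion molecule, was 151 ± 11.9 in sham and 66.2 ± 15.03 in EP_RU486 (fold -1.20, SE 0.20, adjusted p = 0.000644).

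Luminal progenitor markers were called in both directions, and the fold was above 0 for 15 of 20. Without overlap between the groups, 9 were higher and 2 lower, beside 15.6% and 15.1% of all genes. Of 20 tested, 4 were called higher and 2 lower, beside 10.3% and 11.5% of all genes, with a median fold of 0.91. In the list, 8 were higher with EP_TPA mouse 332 and EP mouse 311 left out of the shared fit, and 1 was lower without sham mice 301, 305, 310 or 326 or EP_RU486 mice 308, 313 or 329. Ehf, an ETS factor of epithelium, was 11.02, 10.5, 1.55 and 0.101 in sham and 98.5, 98.4, 66.6 and 81.4 in EP_RU486 (fold 4.28, SE 0.70, adjusted p = 0.00102). Elf5, the ETS factor that drives alveolar fate, was 6.26, 6.40, 0 and 0 in sham and 25.8, 27.1, 28.1 and 28.7 in EP_RU486 (fold 3.39, SE 0.92, adjusted p = 0.0199). Both separated the groups fully. Elf5 was singled out after its values were seen, and without sham mouse 310 or 326 its call was lost, with an adjusted p of up to 0.0629.

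The collagen receptor subunit Itga2 was 4.12, 0, 2.58 and 1.34 in sham and 10.6 ± 1.80 in EP_RU486 (fold 2.17, SE 0.43, adjusted p = 0.00284). Cyp24a1, which degrades vitamin D, was listed at 0 in every sham library and was 65.8, 17.6, 66.0 and 95.3 in EP_RU486 (adjusted p = 0.00181). The iron carrier transferrin (Trf) went the other way. It was 7402, 4691, 2777 and 3543 in sham and listed at 0 in all 4 EP_RU486 libraries (adjusted p = 0.00742). The EP_TPA libraries were split for Trf, with mice 312 and 328 at 0, mouse 332 at 3097 and mouse 336 at 19030. The summed progenitor marker level overlapped between the groups, at 9245 to 25090 in sham and 12983 to 16575 in EP_RU486.

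Members of the prolactin pathway were called in both directions. Prolactin binding activates STAT5, which induces Socs2 and Cish as feedback inhibitors and takes part in the induction of milk genes. Of 15 genes tested, 5 were higher and 3 lower, with a median fold of -0.08. Of the list, 3 were higher without sham mouse 326. Stat5a was 0, 9.20, 3.56 and 1.77 in sham and 76.2, 128, 45.3 and 75.1 in EP_RU486 (fold 4.52, SE 0.54, adjusted p = 8.89e-05). Stat5b was 6.06, 6.20, 5.35 and 6.53 in sham and 36.2, 36.4, 20.2 and 29.9 in EP_RU486 (fold 2.14, SE 0.21, adjusted p = 7.35e-06). Socs2 was 3.13 ± 1.05 against 27.3 ± 3.37 (fold 2.80, SE 0.25, adjusted p = 2.89e-06).

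All 3 stood above every sham library in the same EP_RU486 libraries in which Prlr was listed at 0. Cish was 28.6 ± 5.97 in sham and 9.402 ± 0.925 in EP_RU486 (fold -1.50, SE 0.26, adjusted p = 0.000913), so the feedback genes Socs2 and Cish differed in direction. The phosphatase Ptpn1 was 59.2 ± 12.2 against 20.1 ± 1.63 (fold -1.49, SE 0.27, adjusted p = 0.00132). In EP, Stat5a was 62.5, 111 and 64.3, Stat5b was 19.3, 24.3 and 22.1 and Socs2 was 43.6, 24.8 and 31.4.

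Of 10 milk protein genes, 1 was higher and 1, transferrin, lower. In that list, 2 were higher without EP_RU486 mouse 308, and 4 were higher with EP_TPA mouse 332 and EP mouse 311 left out of the shared fit. Whey acidic protein (Wap) was 0.0647, 0, 0 and 0 in sham and 3.74, 2.01, 3.34 and 1.14 in EP_RU486 (fold 1.74, SE 0.35, adjusted p = 0.00281). Of 16 genes of the milk fat globule and lipid secretion, 4 were higher and 1 lower. In the list, 2 were lower with EP_TPA mouse 332 and EP mouse 311 left out of the shared fit. The efflux pump Abcg2 was 13.6 ± 1.39 in sham and 38.3 ± 10.3 in EP_RU486, and the mucin Muc15 was 17.7 ± 11.5 against 115 ± 33.3.

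Dgat2, which completes triglyceride synthesis, was 30.5, 66.2, 55.6 and 58.8 in sham and 0, 0, 1.58 and 0.0790 in EP_RU486 (fold -5.32, SE 0.50, adjusted p = 8.86e-06). It was the member of the lipid list that went down. Of 28 alveolar and progenitor transcription factors, 5 were higher and 1 lower. Of the list, 3 were higher without sham mice 310 or 326, 8 were higher with EP_TPA mouse 332 and EP mouse 311 left out of the shared fit, and 2 were lower without sham mouse 305 or with EP_TPA mouse 332 and EP mouse 311 left out of the shared fit. Nfib, a nuclear factor I protein, was 25.0 ± 3.86 in sham and 54.9 ± 8.54 in EP_RU486, and Id3, an inhibitor of basic helix-loop-helix factors, was 123 ± 45.1 against 15.8 ± 9.41 (fold -2.98, SE 0.48, adjusted p = 0.000757).

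The 12 genes called higher with the smallest p were Khdrbs3, Slc5a8, Mocs2, Arhgdig, Etv5, Socs2, Adig, Stat5b, Ilk, Lyn, Mxd4 and Hrct1. Start-site sequences are shown for the leading higher and lower genes that the promoter table holds, Slc5a8 and Fam25c, and for Prlr because both searched motifs occur there. Each is the 250 bases before a RefSeq start site in GRCm38.p6, 5′ to 3′ on the gene's strand, with motif matches in capitals. The motifs were the STAT site TTCNNNGAA and the steroid receptor hexamer TGTTCT, searched on both strands. The Slc5a8 window is at chr10:88885742-88885991 on the plus strand, that of Fam25c at chr14:34355394-34355643 on the minus strand, and that of the second of 3 Prlr start sites at chr15:10223656-10223905 on the plus strand.
Slc5a8: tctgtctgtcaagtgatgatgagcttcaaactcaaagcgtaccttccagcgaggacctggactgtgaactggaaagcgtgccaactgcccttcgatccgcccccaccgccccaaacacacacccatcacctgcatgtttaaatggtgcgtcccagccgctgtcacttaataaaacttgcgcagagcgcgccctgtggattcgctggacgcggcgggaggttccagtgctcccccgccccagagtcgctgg
Fam25c: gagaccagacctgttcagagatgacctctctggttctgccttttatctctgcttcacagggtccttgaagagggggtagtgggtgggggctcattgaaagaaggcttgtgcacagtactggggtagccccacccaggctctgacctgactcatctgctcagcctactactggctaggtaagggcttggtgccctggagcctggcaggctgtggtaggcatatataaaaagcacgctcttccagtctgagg
Prlr: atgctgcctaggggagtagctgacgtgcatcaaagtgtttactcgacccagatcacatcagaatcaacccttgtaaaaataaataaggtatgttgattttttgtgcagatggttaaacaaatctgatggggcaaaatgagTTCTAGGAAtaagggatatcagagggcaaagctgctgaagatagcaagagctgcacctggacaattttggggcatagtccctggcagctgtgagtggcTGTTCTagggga
The Slc5a8 and Fam25c windows held neither motif. The Prlr window held 1 STAT match beginning at base -110 and 1 hexamer at base -12 from the start site. The STAT motif occurred in 5.45% of 917 promoters of genes called higher, 5.99% of 1018 called lower and 6.07% of 9067 tested. The hexamer occurred in 11.56%, 10.12% and 10.57% of the same promoters. These shares count only the first start site listed for each gene, so the Prlr window shown is not among them. A match describes these letters and shows no binding.

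Khdrbs3, an RNA-binding regulator of splicing, had no sham library above 0 and stood at 116, 105, 92.7 and 119.8 in EP_RU486 (adjusted p = 1.06e-11). Slc5a8, a sodium-coupled transporter of short monocarboxylates, was listed at 0 in sham and stood at 50.7, 60.01, 54.3 and 61.6 in EP_RU486 (adjusted p = 5.37e-08). Mocs2, a subunit of molybdopterin synthase, was 9.89, 9.36, 9.64 and 7.45 in sham and 65.9, 121, 74.4 and 83.4 in EP_RU486 (fold 3.08, SE 0.25, adjusted p = 1.59e-06). In all 3 genes every EP_RU486 library was far above every sham library, and the EP libraries, at 59.2, 26.4 and 41.6 for Khdrbs3, lay between.

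Etv5, an ETS factor downstream of receptor tyrosine kinases, was 1.17 ± 0.788 in sham and 27.6 ± 3.81 in EP_RU486 (fold 3.79, SE 0.33, adjusted p = 2.29e-06). The kinase Lyn was 8.51 ± 2.38 against 61.4 ± 5.07, and the integrin-linked kinase Ilk was 27.9 ± 6.34 against 82.9 ± 13.3. Adipogenin (Adig) was 1.54 ± 0.641 against 40.3 ± 8.46, Mxd4, a partner of MAX, was 7.40 ± 0.933 against 21.8 ± 3.39, and Hrct1 was 2.56 ± 0.721 against 31.3 ± 13.8. None of these overlapped between the groups, as their choice required.

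Haptoglobin (Hp), the lipase Cel and the secretoglobin Scgb3a1 were also among the genes called higher, and as most or all of their sham libraries were listed at 0, their folds cannot be ranked. Hp, an acute phase protein that binds haemoglobin, was 0, 53.9, 0 and 0 in sham and 2290, 3127, 2397 and 2193 in EP_RU486 (adjusted p = 0.000137). Cel and Scgb3a1 were listed at 0 in sham and were 189 ± 48.8 and 124.8 ± 48.1 in EP_RU486. Scgb3a1 was listed at 0 in all EP libraries as well.

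The leading genes called lower were chosen in the same way, by the smallest p among those without overlap. The 12 were Fam25c, Upk3a, Clip4, Dnajc12, Tmem56, Pcdhac2, Fgfr2, Cd164, Abcc8, Fxyd2, Col8a1 and Proc. Fam25c was 223, 363, 244 and 292 in sham and listed at 0 in all 4 EP_RU486 libraries (adjusted p = 1.15e-14). The uroplakin Upk3a, a protein of the urothelial membrane, was 46.2, 85.2, 44.4 and 127 in sham and listed at 0 in EP_RU486 (adjusted p = 4.18e-10). Both were also listed at 0 in every EP and EP_TPA library. Only the sham libraries thus added to their spread, so their p-values and ranks may overstate the difference. Clip4, Tmem56, the protocadherin Pcdhac2, the potassium channel subunit Abcc8, the sodium pump regulator Fxyd2 and protein C (Proc) were likewise listed at 0 in all 4 EP_RU486 libraries.

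Of the 12, Dnajc12, Cd164 and Col8a1 stayed above 0 in every EP_RU486 library. The co-chaperone Dnajc12 was 40.4 ± 11.7 in sham and 0.788 ± 0.328 in EP_RU486 (fold -4.50, SE 0.26, adjusted p = 4.00e-08). The sialomucin Cd164 was 440.3 ± 128 against 38.1 ± 3.39 (fold -3.44, SE 0.28, adjusted p = 1.59e-06), and the collagen Col8a1 was 41.1 ± 15.3 against 1.70 ± 1.30. Fgfr2, a receptor for stromal FGF ligands, was 56.4, 101, 108 and 126 in sham and 0, 0, 0 and 0.344 in EP_RU486. All 4 separated the groups, as their choice required.

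Wfdc2 and Ly6d were also called lower, with most or all EP_RU486 libraries listed at 0, so that their folds cannot be ranked either. Wfdc2, a secreted whey acidic protein domain protein, was 213, 679, 603 and 553 in sham and listed at 0 in EP_RU486. The surface protein Ly6d was 514, 1382, 1094 and 953 in sham and 0, 0, 33.8 and 0 in EP_RU486 (adjusted p = 0.012).

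**Figure D2:**
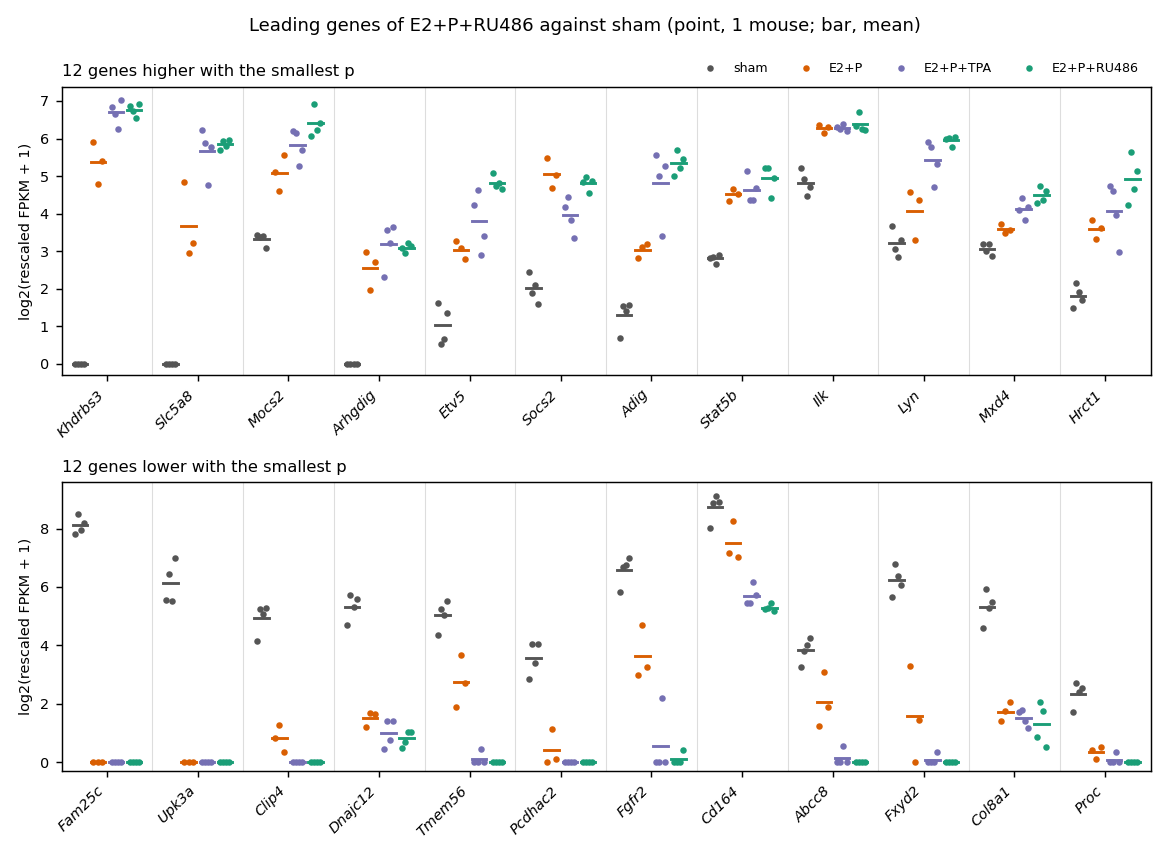
Level of the 12 genes higher and the 12 lower in E2+P+RU486 (EP_RU486) than in sham with the smallest p, as log2(rescaled FPKM + 1) in each luminal mature library. Points are mice and bars group means. In all 24 genes the 4 E2+P+RU486 points lie apart from the 4 sham points, because genes were chosen among those without overlap.

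Steroid receptors and their partners included further lower genes. Of 23 receptors and coregulators, 2 were higher and 6 lower. The estrogen-related receptor Esrrg was 2.88 ± 0.834 in sham and 0.581 ± 0.0928 in EP_RU486 (fold -1.27, SE 0.17, adjusted p = 0.000116). The glucocorticoid receptor Nr3c1 was 7.80, 4.54, 5.04 and 4.15 in sham and 10.7, 8.42, 9.85 and 10.2 in EP_RU486 (fold 0.79, SE 0.21, adjusted p = 0.0134). Without sham mouse 326 the adjusted p of Nr3c1 was 0.0502 and Tfap2c, a transcription factor, was the 1 member still called higher. Gata3, a factor of luminal identity singled out after its values were seen, was 40.3 ± 30.3 against 55.0 ± 17.2 (adjusted p = 0.326).

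Lists of receptor targets were divided. Of 19 estrogen receptor targets, 6 were lower and 1 higher. In that list, 2 were higher without EP_RU486 mouse 308, and 5 were higher with EP_TPA mouse 332 and EP mouse 311 left out of the shared fit. The higher one was Rerg, a Ras-like growth inhibitor, at 2.21, 0.651, 0.545 and 0 in sham and 15.9, 13.9, 13.6 and 15.5 in EP_RU486 (fold 3.21, SE 0.39, adjusted p = 6.57e-05). Of 19 progesterone receptor targets, 4 were lower and 2 higher. The median fold over the 19, 0.00, is that of a gene listed at 0 in all 8 libraries. Over the 14 members above 0 in some library of both groups it was 0.04. In the list, 1 was higher without sham mice 305, 310 or 326 or EP_RU486 mice 308, 329 or 333, and 2 were lower without sham mice 310 or 326 or EP_RU486 mice 308, 313 or 329.

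Of 19 glucocorticoid receptor targets, 4 were lower and none higher, with a median fold of -0.22. Of the list, 2 were higher with EP_TPA mouse 332 and EP mouse 311 left out of the shared fit, and 2 were lower without sham mice 305 or 326 or EP_RU486 mice 308, 313 or 329. Errfi1, a feedback inhibitor of EGF receptors, was 369 ± 47.9 in sham and 71.4 ± 45.3 in EP_RU486 (fold -2.54, SE 0.56, adjusted p = 0.00662). Glul, which makes glutamine, was 75.6 ± 34.2 against 17.1 ± 3.58 (fold -1.99, SE 0.41, adjusted p = 0.00351). In the RANKL axis of 11 genes, 1 was higher and 1 lower. In that list, 2 were higher without sham mouse 305 or with EP_TPA mouse 332 and EP mouse 311 left out of the shared fit, and 2 were lower without EP_RU486 mouse 333. The receptor RANK (Tnfrsf11a) was 5.66 ± 0.541 in sham and 13.9 ± 2.42 in EP_RU486, and the NF-kappaB subunit Relb was 29.7 ± 3.84 against 16.2 ± 1.67.

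In growth factor pathways, single ligands and receptors were called. Of 13 EGF family genes, 5 were lower and none higher, with a median fold of -0.90. In the list, 8 were lower with EP_TPA mouse 332 and EP mouse 311 left out of the shared fit. The receptor Erbb2 was 24.8, 26.0, 30.6 and 25.9 in sham and 13.7, 12.9, 10.3 and 12.4 in EP_RU486 (fold -1.06, SE 0.21, adjusted p = 0.00248). The ligand Nrg4 was 0.728, 0.936, 1.37 and 1.66 in sham and 0, 0.0593, 0 and 0 in EP_RU486 (fold -1.08, SE 0.19, adjusted p = 0.00123). Both separated the groups. Of 14 genes of FGF receptors and ERK feedback, 4 were lower and 1, Etv5, higher. Of the list, 2 were higher without EP_RU486 mouse 313, and 2 were lower without sham mouse 305 or EP_RU486 mouse 313. Etv4, a close relative of Etv5, was 2.11, 10.4, 5.44 and 8.56 in sham and 0.579, 0, 2.24 and 1.62 in EP_RU486 (fold -1.84, SE 0.48, adjusted p = 0.0143), opposite in direction to Etv5.

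Of 29 Wnt pathway genes, 5 were higher and 4 lower, beside 10.3% and 11.5% of all genes, with a median fold of 0.06. In that list, 2 were higher without EP_RU486 mouse 333, 3 were higher without sham mice 310 or 326 or EP_RU486 mice 308 or 313, 8 were higher with EP_TPA mouse 332 and EP mouse 311 left out of the shared fit, and 2 were lower without sham mouse 310 or EP_RU486 mice 313 or 329. The receptor Fzd1 was 1.6 ± 0.246 in sham and 9.78 ± 2.41 in EP_RU486 (fold 2.03, SE 0.27, adjusted p = 0.000129), and the receptor Fzd8 was 2.62 ± 0.531 against 7.83 ± 1.85. The ligand Wnt7b was 33.1 ± 5.13 against 6.64 ± 1.12 (fold -2.16, SE 0.44, adjusted p = 0.00323).

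Of 28 genes of the TGF-beta and BMP pathway, 7 were lower and 2 higher. In the list, 4 were higher with EP_TPA mouse 332 and EP mouse 311 left out of the shared fit. The receptor Tgfbr2 was 28.9, 35.7, 38.4 and 43.9 in sham and 10.3, 11.8, 10.8 and 11.5 in EP_RU486 (fold -1.62, SE 0.21, adjusted p = 0.000117). The inhibitor Smad7 was 12.3 ± 3.52 against 3.79 ± 1.39 (fold -1.47, SE 0.27, adjusted p = 0.00124). The ligand Tgfb2 was 1.603 ± 0.880 against 7.67 ± 1.29 (fold 1.78, SE 0.30, adjusted p = 0.000793), and the ligand Tgfb3 was 26.8, 33.5, 0 and 13.9 in sham and 341 ± 56.2 in EP_RU486 (fold 4.95, SE 1.06, adjusted p = 0.00643).

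Of 21 Notch pathway genes, 4 were higher and 2 lower. Of the list, 2 were higher without sham mouse 326 or EP_RU486 mice 308 or 333, and 7 were higher with EP_TPA mouse 332 and EP mouse 311 left out of the shared fit. The receptor Notch1 was 7.37 ± 5.30 in sham and 26.2 ± 7.0 in EP_RU486, and the glycosyltransferase Rfng, which modifies Notch receptors, was 5.91 ± 1.598 against 12.4 ± 2.82. The ligand Jag1 was 8.25 ± 1.95 against 3.32 ± 0.939, and Lfng, also a Notch glycosyltransferase, was 3.63 ± 1.41 against 0.847 ± 0.382. Of 15 genes of the insulin-like growth factor axis, 1 was higher and 2 were lower. In that list, 0 were higher without sham mice 305, 310 or 326 or EP_RU486 mice 308, 329 or 333, and 4 were higher with EP_TPA mouse 332 and EP mouse 311 left out of the shared fit. The adaptor Grb14 was 8.43 ± 2.25 in sham and 1.11 ± 0.225 in EP_RU486 (fold -2.13, SE 0.21, adjusted p = 7.28e-06), and Igf1 was 2.62 ± 1.70 against 0.542 ± 0.200.

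Cytosolic ribosomal protein genes were higher almost throughout. Of 78 tested, 71 were higher and none lower, with a median fold of 0.88 against 0.04 over all genes. When any 1 of the 8 libraries was left out, 65 to 72 were higher, and without rescaling of the libraries 68 were. Rpl3 was 362, 263, 279 and 230.5 in sham and 610.5, 660.0, 628 and 758 in EP_RU486 (fold 1.24, SE 0.15, adjusted p = 6.92e-05). Rps7 was 117, 77.6, 101 and 68.3 in sham and 211, 259, 231 and 240.1 in EP_RU486 (fold 1.39, SE 0.18, adjusted p = 0.0001). The groups did not overlap for either gene.

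By library, the median log2 difference of these genes from the sham mean was 0.74, 0.85, 0.95 and 0.98 in EP_RU486 and between -0.27 and 0.24 in sham. It was 0.43 to 0.73 in EP and 0.45 to 0.96 in EP_TPA. Many of these genes have processed pseudogenes with which reads could be shared. Of 29 translation factors, 13 were higher and 1 lower. In the list, 8 were higher without sham mouse 326. The elongation factor Eef1a1 was 828 ± 217 in sham and 1727 ± 136 in EP_RU486, and the initiation factor subunits Eif3h and Eif3e were 74.1 ± 12.5 against 146 ± 15.6 and 48.3 ± 5.91 against 87.0 ± 1.36. The cap-binding protein Eif4e was 33.8 ± 7.11 against 16.9 ± 3.24 (fold -0.95, SE 0.24, adjusted p = 0.00997), the member that was lower.

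**Figure D3:**
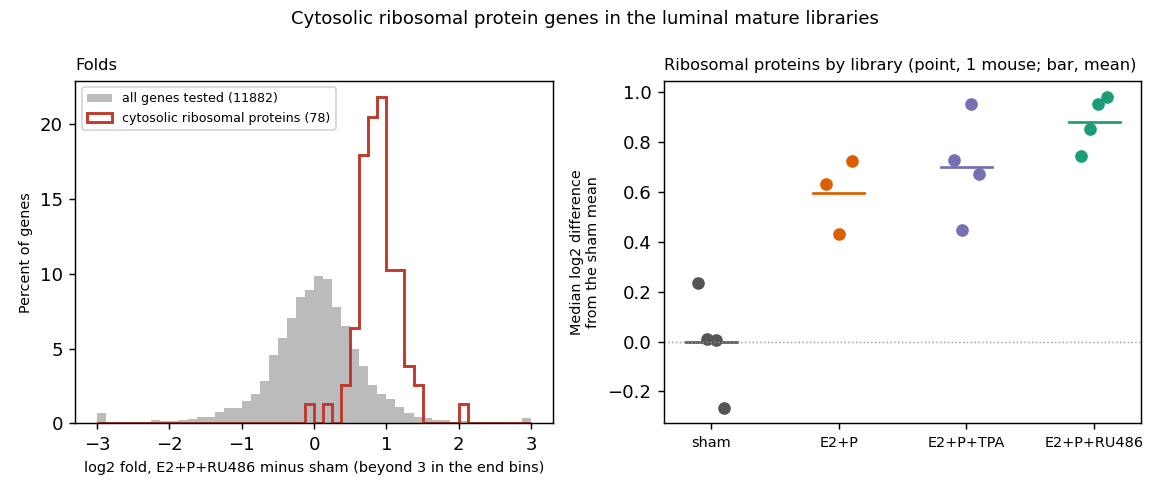
Distribution of log2 folds of 78 cytosolic ribosomal protein genes beside all 11882 genes tested, in percent of genes, and the median log2 difference of the ribosomal protein genes from the sham mean in each library, with points for mice. The 4 E2+P+RU486 (EP_RU486) libraries lie between 0.74 and 0.98, above the 4 sham libraries.

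Interferon-stimulated and antigen-processing genes were lower where called. Of 25 tested, 8 were lower and none higher, with a median fold of -0.24. Of the list, 5 were lower without sham mouse 326 or EP_RU486 mouse 308. In 7 of the 25, Ifit family genes among them, the fold was above 0, and none of the 7 was called. The genes given next belong to antigen processing. The immunoproteasome subunit Psmb8 was 111, 176, 144 and 154 in sham and 51.4, 73.0, 67.0 and 65.7 in EP_RU486 (fold -1.17, SE 0.17, adjusted p = 0.0003). Its partner Psmb9 was 59.7 ± 16.0 against 23.6 ± 4.14, and the class I molecule H2-K1, whose reads may be shared with close relatives, was 571 ± 47.1 against 327 ± 57.4.

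Of 22 genes of innate defence and the acute phase, 4 were higher and 1 lower. The lipopolysaccharide-binding protein Lbp was 35.0 ± 17.9 in sham and 191 ± 21.8 in EP_RU486 (fold 2.53, SE 0.43, adjusted p = 0.000961). The antibody transporter Pigr was 0.579, 0, 0.731 and 0 in sham and 9.87 ± 4.43 in EP_RU486 (fold 2.95, SE 0.57, adjusted p = 0.00263). The alarmin Il33 was 53.5 ± 7.97 against 4.11 ± 1.44 (fold -3.44, SE 0.39, adjusted p = 3.84e-05), the lower member of the list.

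Counts of called glycolysis and hypoxia genes were near the shares over all genes, so the enzymes given here are single examples. Of 27 genes of glycolysis and hypoxia, 3 were higher and 3 lower, beside 10.3% and 11.5% of all genes. In that list, 5 were higher without sham mouse 301 or with EP_TPA mouse 332 and EP mouse 311 left out of the shared fit, and 5 were lower with EP_TPA mouse 332 and EP mouse 311 left out of the shared fit. Pyruvate kinase Pkm was 329, 337, 293 and 333 in sham and 132, 176, 144 and 165 in EP_RU486 (fold -1.07, SE 0.14, adjusted p = 0.000135). Enolase Eno1 was 150.0 ± 64.1 against 368 ± 38.6 and the phosphofructokinase Pfkl 40.8 ± 7.20 against 86.3 ± 10.9. The regulatory enzymes Pfkfb3 and Pfkfb4 were 37.2 ± 8.37 against 9.397 ± 2.21 and 1.37 ± 0.293 against 0.320 ± 0.0435. Of 49 oxidative phosphorylation genes, 1 was higher and 1 lower, below the background share in each direction. In the list, 0 were higher without sham mouse 310 or EP_RU486 mouse 313, and 0 were lower without sham mice 301, 305, 310 or 326 or EP_RU486 mice 308 or 333.

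Of 26 genes of cholesterol and fatty acid synthesis, 5 were higher and 2 lower. Of the list, 3 were higher without sham mouse 310 or EP_RU486 mouse 313, 0 were lower without sham mouse 326 or EP_RU486 mice 308 or 313, and 1 was lower without sham mice 301, 305 or 310 or EP_RU486 mouse 329. The elongase Elovl6 was 1.15 ± 0.237 in sham and 4.43 ± 0.976 in EP_RU486, and the sterol cyclase Lss was 2.17 ± 0.464 against 4.93 ± 1.02. Of 17 solute transporters, 4 were higher and 3 lower. The sodium-potassium-chloride carrier Slc12a2 was 165 ± 67.3 in sham and 12.1 ± 4.20 in EP_RU486 (fold -3.63, SE 0.37, adjusted p = 1.47e-05). The amino acid carrier Slc7a5 was 14.6, 1.46, 0 and 0 in sham and 30.9 ± 11.6 in EP_RU486, and Slc7a2, which carries arginine, was 13.0 ± 2.97 in sham and listed at 0 in EP_RU486.

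Of 18 circadian clock genes, 4 were lower and 1 higher. In that list, 0 were higher without sham mice 301, 310 or 326 or EP_RU486 mice 308, 313 or 329, and 2 were higher with EP_TPA mouse 332 and EP mouse 311 left out of the shared fit. The repressor Cry2 was 22.6 ± 4.67 in sham and 6.79 ± 2.21 in EP_RU486, and Bhlhe40, also a repressor, was 185 ± 19.5 against 78.7 ± 31.0. Of 47 proliferation genes, 6 were higher, beside 10.3% of all genes, and none lower, with a median fold of 0.58. In the list, 0 were higher without sham mouse 310 or EP_RU486 mouse 308, 1 was higher without sham mouse 326, 2 were higher without EP_RU486 mouse 313, 3 were higher without sham mouse 305 or EP_RU486 mouse 329, and 21 were higher with EP_TPA mouse 332 and EP mouse 311 left out of the shared fit. The fold was above 0 for 44 of the 47 proliferation genes. For 20 of them the EP_RU486 values lay above sham without overlap, beside 15.6% of all genes. Of the 47, 24 were listed at 0 in some luminal mature library. The median fold of EP against sham over these genes was 2.02. Of 19 cyclins and inhibitors of cyclin-dependent kinases, 2 were higher and 3 lower. Of the list, 5 were higher with EP_TPA mouse 332 and EP mouse 311 left out of the shared fit, and 1 was lower without sham mice 305 or 326 or EP_RU486 mice 308 or 313. The kinase Cdk6 was 0.819 ± 0.618 in sham and 2.64 ± 0.304 in EP_RU486, and the cell cycle inhibitor Cdkn2c was 1.92 ± 0.701 against 6.84 ± 1.24. The lower members were cyclin F (Ccnf), at 1.19 ± 0.195 in sham and listed at 0 in EP_RU486, and the inhibitors Cdkn1a, at 141 ± 41.8 against 57.9 ± 16.9 (fold -1.26, SE 0.42, adjusted p = 0.0435), and Cdkn2d, at 3.22 ± 0.874 against 1.66 ± 0.658 (fold -0.67, SE 0.23, adjusted p = 0.0475). Cdkn1a lost its call in turn without sham mice 301, 305 and 326 and EP_RU486 mice 308, 313 and 329, with an adjusted p of up to 0.115, and Cdkn2d in turn without sham mice 305, 310 and 326 and EP_RU486 mice 308, 313 and 333, with up to 0.135.

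Of the markers of other cell types few were called. Of 25 basal and myoepithelial markers, 2 were higher and none lower. In that list, 1 was higher without sham mice 305 or 326 or EP_RU486 mice 313, 329 or 333. Their summed level was 1762 to 2147 in sham and 1874 to 3179 in EP_RU486, the highest in mouse 333. The smooth muscle gene Lmod1 was 1.14 ± 0.303 in sham and 4.002 ± 0.892 in EP_RU486. Of 18 endothelial markers, 1 was higher. In the list, 0 were higher without sham mice 301, 305, 310 or 326 or EP_RU486 mice 313 or 329, and 7 were higher with EP_TPA mouse 332 and EP mouse 311 left out of the shared fit. Their sums were 615 to 764 in sham and 781 to 1256 in EP_RU486, without overlap.

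Of 12 fibroblast markers, 1, the growth factor receptor Pdgfra, was higher, at 1.02 ± 0.301 in sham and 4.11 ± 0.625 in EP_RU486, with summed levels of 36.2 to 152 and 32.1 to 158. No member was called among 11 immune, 9 adipocyte, 10 skeletal muscle and 4 red blood cell markers tested. In sham their sums were 53.8 to 189 (immune), 914 to 1246 (adipocyte), 0 to 16.0 (skeletal muscle) and 15.4 to 179.5 (red blood cell). In EP_RU486 they were 29.1 to 163, 992 to 1240, 0 to 106 and 23.4 to 360.1 respectively, overlapping sham for each. The part of these cells in the results was not tested.

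**Figure D4:**
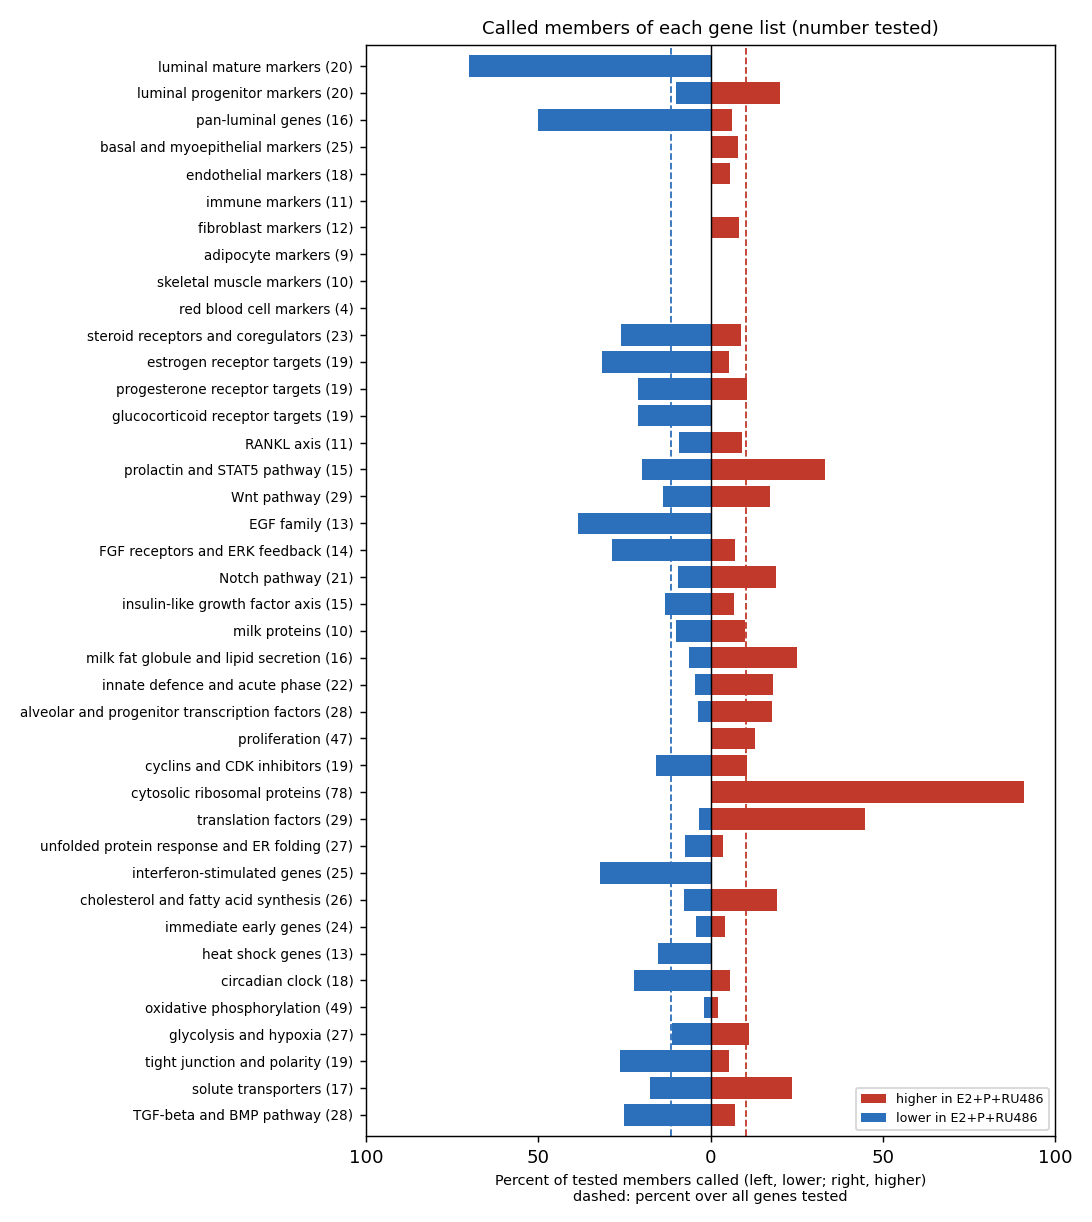
Percent of tested members of 40 gene lists called higher or lower in E2+P+RU486 (EP_RU486) than in sham, with the number tested beside each name and dashed lines at the percent over all 11882 genes. Among lists with members called higher, cytosolic ribosomal proteins (71 of 78) reach farthest, and luminal mature markers (14 of 20) reach farthest among those called lower.

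The hormone group without antagonist was set beside these differences. The comparison of EP with sham uses the same sham libraries, and the genes that follow were chosen by their calls, so their values are a description. The first set was called in the same direction in EP and in EP_RU486 against sham, with an unadjusted p over 0.05 between EP_RU486 and EP. The 6 higher genes with the smallest p were Arhgdig, Socs2, Stat5b, Ilk, Golm1 and Rerg. Ilk was 35.9, 29.5, 21.2 and 24.9 in sham, 81.0, 70.1 and 77.5 in EP and 79.0, 103, 75.4 and 74.5 in EP_RU486. The Golgi protein Golm1 was 2.83 ± 0.754 in sham, 7.90, 8.26 and 13.5 in EP and 14.5 ± 2.85 in EP_RU486.

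The 6 lower genes of the first set were Fam25c, Upk3a, Pcdhac2, Col8a1, Proc and Capsl. Capsl, a calcium-binding protein, was 58.6 ± 11.3 in sham, 8.64, 5.33 and 6.38 in EP and 7.01 ± 1.94 in EP_RU486. Col8a1 was 1.68, 2.34 and 3.14 in EP. In each of the 12 genes of this set, every EP, EP_RU486 and EP_TPA library lay on the same side of all sham libraries.

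The second set was called in EP_RU486 against both sham and EP in the same direction, with an unadjusted p over 0.05 between EP and sham. Its higher genes were Rap1gap2, Col9a1, Prkg1, Zfp827, Ano4 and Scube1. The collagen gene Col9a1 was 0.480, 0, 0 and 0 in sham, 2.50, 0 and 5.37 in EP and 54.9, 38.8, 36.8 and 34.5 in EP_RU486. The cyclic GMP-dependent kinase Prkg1 was 0.805 ± 0.408 in sham, 2.15, 0.735 and 2.03 in EP and 5.58 ± 0.925 in EP_RU486. In EP_TPA, Col9a1 was 29.9, 40.1, 4.41 and 33.2, so 3 of 4 libraries with the other antagonist were near the EP_RU486 level and mouse 332 was not.

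The lower genes of the second set were Ccdc92, Nek7, Foxa1, Prlr, Mtmr7 and Arg2. Nek7, a mitotic kinase that also acts in the inflammasome, was 42.6, 66.9, 109 and 86.3 in sham, 57.5, 87.7 and 45.2 in EP and 12.03, 11.8, 13.0 and 10.1 in EP_RU486 (fold -2.52, SE 0.27, adjusted p = 1.61e-05). Arginase 2 (Arg2) was 24.8, 69.1, 76.6 and 65.1 in sham, 51.2, 121 and 51.0 in EP and listed at 0 in EP_RU486. The EP and sham values of these genes overlapped while those of EP_RU486 lay below both. An unadjusted p over 0.05 does not show that EP and sham were alike.

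The third set was called in opposite directions against sham. The genes higher in EP_RU486 and lower in EP than in sham were Cpsf4l, Rp9, Wnk2, Isoc1, Rassf4 and Trib2. Isoc1 was 51.6 ± 8.92 in sham, 22.4, 14.1 and 23.4 in EP and 96.3 ± 8.73 in EP_RU486. Rassf4, a protein with a Ras-association domain, was 5.12 ± 1.64 in sham, 0.959, 0.501 and 0 in EP and 21.8 ± 4.93 in EP_RU486. These calls were weak: with all libraries their adjusted p ran from 0.0182 to 0.0366. Cpsf4l lost its call without EP_RU486 mouse 313, Rp9 without sham mice 310 and 326, and Trib2, with an adjusted p of up to 0.114, in turn without sham mice 305, 310 and 326 and EP_RU486 mice 308, 313 and 329. Wnk2 lost it in turn without sham mice 305, 310 and 326 and EP_RU486 mice 308, 329 and 333, Isoc1 in turn without sham mice 310 and 326 and EP_RU486 mice 308, 313, 329 and 333, and Rassf4 in turn without sham mice 305, 310 and 326 and EP_RU486 mice 308, 313 and 333.

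The genes lower in EP_RU486 and higher in EP than in sham were Slc52a3, Mycbpap, Ccnf, Foxred2, D8ERTD82E and Avpi1. The riboflavin carrier Slc52a3 was 2.28, 4.12, 2.76 and 3.85 in sham, 7.88, 14.8 and 7.11 in EP and 0.132, 0.661, 0.611 and 0.198 in EP_RU486 (fold -1.60, SE 0.28, adjusted p = 0.000898). Cyclin F (Ccnf) was 0.900, 1.28, 1.33 and 1.24 in sham, 3.11, 3.27 and 4.08 in EP and listed at 0 in EP_RU486 (adjusted p = 0.00381). For both genes the 3 groups did not overlap. D8ERTD82E lost its call against sham in turn without sham mice 310 and 326 and EP_RU486 mouse 329, and Avpi1 in turn without sham mice 305, 310 and 326 and EP_RU486 mice 308 and 313.

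**Figure D5:**
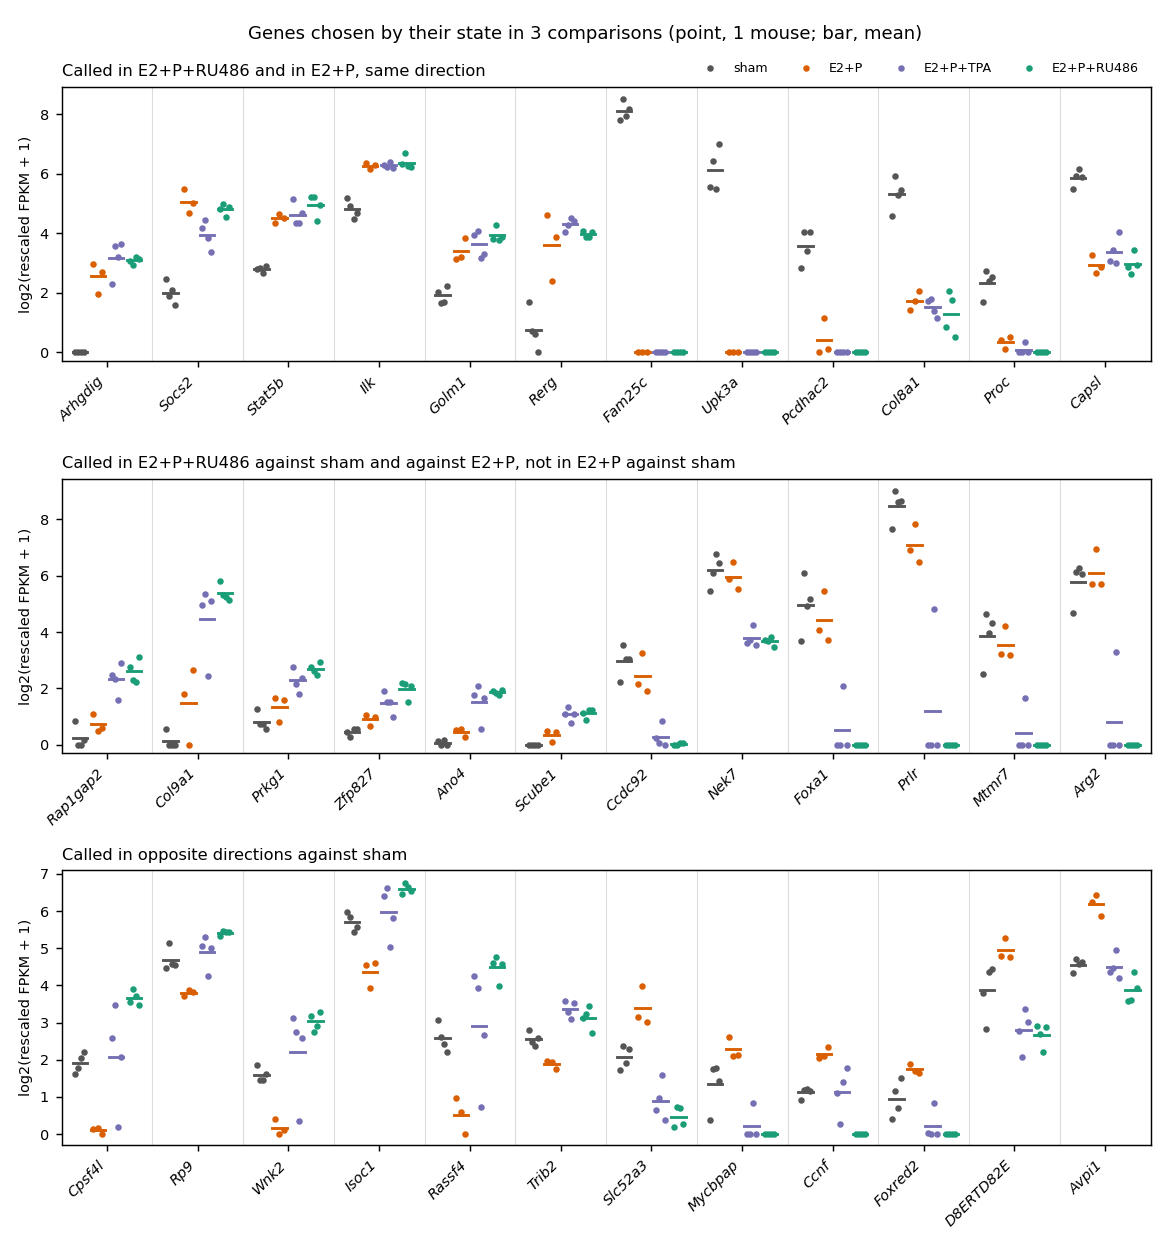
Level of the genes chosen by their calls against sham and EP, as log2(rescaled FPKM + 1) in each luminal mature library, where E2+P is EP and E2+P+RU486 is EP_RU486. Points are mice and bars group means. In the first set, such as Capsl, both hormone groups lie on 1 side of sham. In the second, E2+P overlaps sham for some genes, such as Nek7, and not for others, such as Scube1. In the third, such as Slc52a3, the means of the 2 groups lie on opposite sides of sham. For Trib2, D8ERTD82E and Avpi1 of the third set, E2+P+RU486 points overlap sham points.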

How the data were processed

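Polyadenylated RNA of sorted luminal mature cells was sequenced, 1 library per mouse, in 15 mice of 4 groups, 8 of them compared here. The authors deposited 1 table of FPKM values, and the submitters' processing notes name STAR, Cufflinks, DESeq2 and the build mm9, with no versions or roles. From the values, each gene had been shifted and rescaled within each of 3 sets of libraries, with negatives set to 0; this keeps the order of libraries within a gene but affects fold sizes. Depth is unknown. Of 22007 symbols, 27 that look like dates were left out. The 15 libraries were rescaled by median ratios over 8539 genes (factors 0.867 to 1.247). Genes above 1 in at least 3 libraries (11882) were tested as log2(value + 1) with limma 3.58.1 in R 4.3.3 (trend and robust moderation, all 4 groups in 1 fit), and p-values were adjusted by the Benjamini-Hochberg method over all genes tested. The pipeline was tested on simulated data. The members and gene lists were chosen with earlier results of these data known. Named genes were the 12 with the smallest p and no overlap in each direction, the 3 leading called members of each list, all luminal mature markers, 6 per direction in each set against EP, and the 4 largest folds, whose order has no meaning where a group is listed at 0. Predicted genes and those with near-identical copies were left out of the naming, except list members. Alternatives were no rescaling, a pseudocount of 0.1, no filter or a stricter one (5 in 4 libraries), the 2 groups alone, library weights and leaving out each library.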

Additional observations from a re-analysis of the deposited data

Results flagged for a closer look

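In groups of 4 values, 25 of 279 groups had 1 value that stood apart from the other 3, 9.0%. The cut-off gives about 1 in 20 for normally distributed values. These values were not logged and were cut off at 0. A group with 3 values at 0 and 1 above 0 is always flagged. The 9.0% therefore shows no excess over chance. Of the 25, 7 fell on sham mouse 301 and 5 on EP_RU486 mouse 333.

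In sham mouse 301, Rap1gap2 was 0.787, Col9a1 0.48, Notch1 15.2, Wap 0.0647, Slc7a5 14.6 and Grb14 5.08, and the summed luminal progenitor markers were 25090 against 9245 to 11089 in the other sham mice. All of these but Grb14 were above the other 3 sham mice. In sham mouse 305, Rp9 was 34.3, Hp 53.9, Lfng 1.52 and Bhlhe40 214, with Lfng the value that lay below the others. The summed red blood cell markers were 179.5 in sham mouse 310, against 15.4 to 25.4 in the other sham mice.

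In EP_RU486 mouse 333, Lmod1 was 5.34, Fgfr2 0.344, Wnt7b 8.32 and Pfkfb3 12.7, and the summed basal markers were 3179 against 1874 to 2067 in the other 3 mice. In EP_RU486 mouse 313, Ilk was 103, Muc15 164, Elovl6 2.99 and Nrg4 0.0593, with Elovl6 the value that lay below the others. In EP_RU486 mouse 329, Tgfb3 was 258, below the other 3 mice, while Ly6d was 33.8 and Dgat2 1.58, above them. In EP_RU486 mouse 308, Pgr was 0.189 and the other 3 were at 0.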

How the results depend on the processing

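No paired analysis was possible because the 2 groups come from different mice and share no replicate number. The 1221 genes called higher and 1366 called lower became 995 and 1271 without rescaling, 1207 and 1320 with a pseudocount of 0.1, 1177 and 1389 without the filter, 892 and 1022 with the stricter filter, which tests fewer genes, and 1791 and 1690 with the 2 groups alone. Library weights gave 2661 and 2434. With EP_TPA mouse 332 and EP mouse 311 left out of the shared fit, chosen after seeing the data because they correlated least with their groups, 1853 and 1769 were called. Leaving out 1 of the 8 libraries gave 803 to 1144 higher (lowest without sham mouse 326) and 911 to 1273 lower. The cause of these changes was not tested. Of 148 genes named, 141 were called. Of these, 128 kept call and direction in every setting run, and 13 lost the call when 1 library was left out. With a pseudocount of 0.1, Elf5 (adjusted p = 0.0624), Cpsf4l (0.0984), Wnk2 (0.105), Rassf4 (0.114) and Cdkn2d (0.054) lost it. Without the filter Isoc1 (0.0501), Cdkn1a (0.0608) and Cdkn2d (0.0641) lost it, and without rescaling Cdkn2d (0.0627). Of the named genes not called, Cxcl15 and Gata3 were called with library weights, and Rcan1 also with the 2 groups alone. No called gene changed direction in any setting.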

Other observations

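Gene families singled out after their values were seen differed from the cytosolic ribosomal proteins. Of 77 mitochondrial ribosomal protein genes, 4 were called higher and 1 lower, with a median fold of 0.08. Of 38 proteasome subunit genes, 1 was higher and 6 lower, with a median of -0.16, and the lower ones included the immunoproteasome subunits Psmb8, Psmb9 and Psmb10. Of 12 host genes of small nucleolar RNAs (Snhg), 4 were higher and none lower, with a median of 0.61. Of 16 keratin genes, 6 were lower and none higher.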
